A study of Arabidopsis thaliana with 12 samples.

Results

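The group VII ethylene response factors (ERFVIIs) of Arabidopsis thaliana are encoded by 5 genes, the related RAP2.12, RAP2.2 and RAP2.3 together with HRE1 and HRE2, and HRA1 encodes a trihelix protein known to repress their activity. These 6 genes, taken by their locus identifiers from the 37885 genes counted, were followed by RNAseq in whole 7-day-old seedlings of 3 genotypes, with 4 biological replicates of each. Seedlings labelled prt6-1erfvii (prt6 erfVII) carried prt6 together with mutant alleles of all 5 ERFVII genes. By their label, prt6-1 seedlings (prt6) carried the mutation of PRT6 alone, which the PRT6 counts given below could not verify, and those of the accession Col-0 were the wild type. All were grown untreated in continuous light on reduced-strength Murashige and Skoog agar without sucrose. HRA1 is not mutated in any of the genotypes. Each genotype is a single line, and the methods describe the ERFVII alleles as T-DNA insertions, which can leave part of a transcript in place. Counts summed over a gene do not tell which stretch of its transcript was read.

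ERFVII proteins are destroyed when oxygen is present. Methionine aminopeptidases remove the first residue, plant cysteine oxidases (PCOs) oxidise the cysteine that is then exposed, the arginyl transferases ATE1 and ATE2 add arginine, and the E3 ligase PRT6 marks the protein for degradation. Without PRT6 activity the ERFVIIs remain, and genes of the hypoxia response are switched on in air. HRA1 is itself induced by RAP2.12 and binds it, so that it acts as a brake on the response, and PCO1 and PCO2 form another such loop. RAP2.12, RAP2.2 and RAP2.3 are known as constitutively expressed, whereas HRE1 and HRE2 are known to be induced by hypoxia.

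The degradation pathway begins at the second codon, so the coding starts of the 6 genes are shown here, read from the TAIR10.1 assembly with the RefSeq annotation and with the second codon in capitals.
RAP2.12: atgTGTggaggagctataatatccgatttc
RAP2.2: atgTGTggaggagctataatctccgatttc
RAP2.3: atgTGTggcggtgctattatttccgattat
HRE1: atgTGCggaggagctgtaatttccgattac
HRE2: atgTGTgggggagctatcatttctgatttc
HRA1: atgGAAtcgaatgtgatgttctctgggttt

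The 5 ERFVII genes had a cysteine codon at the second position (TGC in HRE1 and TGT in the others), while HRA1 had a codon for glutamate. Of the first 30 coding bases, 21 were identical in all 5 ERFVII genes. A start with methionine and cysteine was found in 205 of 27389 coding genes (0.748%), and the first 5 residues shared by the ERFVIIs were found in 5 genes, which were the ERFVII genes themselves. Over whole proteins RAP2.12 (358 residues) and RAP2.2 (379 residues) were 62.2% identical. All other pairs of ERFVIIs were between 24.6% and 35.1% identical, the highest of these being HRE1 (262 residues) and HRE2 (171 residues). RAP2.3 has 248 residues. HRA1, with 431 residues, was between 11.3% and 15.5% identical to each ERFVII.

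RAP2.12 (AT1G53910) lies on the plus strand at chr1:20134844-20137013 and its coding start at chr1:20135242-20135271. HRE1 (AT1G72360, named ERF73 in the table) is on the same chromosome at chr1:27241696-27242968, plus strand, with its coding start at chr1:27241904-27241933. HRE2 (AT2G47520, ERF71) is at chr2:19502776-19503702 on the minus strand, and its start at chr2:19503461-19503490. The other 3 genes are on chromosome 3. RAP2.3 (AT3G16770, EBP) is at chr3:5705541-5707084, plus strand, with its start at chr3:5705784-5705813. RAP2.2 (AT3G14230) is at chr3:4737120-4739298 on the minus strand and starts at chr3:4738971-4739000. HRA1 (AT3G10040) is at chr3:3096345-3098417, minus strand, in a single exon, with its start at chr3:3097846-3097875.

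Library totals over all genes were between 23792267 and 30582461 counts in prt6 erfVII, 24252447 and 27341302 in prt6 and 23156637 and 25816881 in Col-0. Replicates differed by more than counting noise in all pairs, with chi-square values of 3.88 to 15.1 per degree of freedom. The pairs with prt6 replicate 4 had the highest values (12.02, 14.1 and 15.1). Results of the 6 genes whose call or sign changes without that library are given with and without it. Counts and shares for the core hypoxia genes, regulators, other ERF-domain genes and neighbours are given with all libraries only. Without prt6 replicate 4, more of all genes were called in prt6 against Col-0. PRT6 itself, the targeted ligase, averaged 9.06 ± 1.28 CPM (counts scaled to a common library size with TMM factors; SD, n = 4) in prt6 erfVII, 64.2 ± 14.3 CPM in prt6 and 62.2 ± 4.18 CPM in Col-0 (SD, n = 4 each). Its transcript was therefore lower in prt6 erfVII only, and each direction stated for "the libraries labelled prt6" rests on the label. Against prt6 its log2 fold change in prt6 erfVII was -2.81 (adjusted p = 1.25e-06 by edgeR). These 2 genotypes thus differed in the PRT6 transcript as well as in the ERFVII genes. All 5 shoot markers and all 7 root markers examined had at least 10 counts in every library and none was at 0, as whole seedlings should have. The summed shoot markers ranged between 37217 and 42631 CPM in prt6 erfVII, 37020 and 41807 CPM in prt6 and 41937 and 43921 CPM in Col-0. The summed root markers ranged between 248 and 326 CPM in prt6 erfVII, 277 and 322 CPM in prt6 and 236 and 279 CPM in Col-0. The 4 root hair genes among them were lower in prt6 erfVII in both of its comparisons, whereas the other 3 root markers were not called lower. IRT1, an iron transporter of the root epidermis, was called higher than in Col-0 in prt6 erfVII (0.39) and prt6 (0.30 on the log2 scale), and SCR in prt6 erfVII (0.18). Of the shoot markers, the light-harvesting genes LHCB1.3 (-0.20 and -0.26) and LHCB2.1 (-0.41 and -0.42) were called lower than in Col-0 in prt6 erfVII and prt6. PRP3, a root hair cell wall protein, averaged 7.00 ± 1.01 CPM in prt6 erfVII, 25.1 ± 1.96 CPM in prt6 and 21.9 ± 2.25 CPM in Col-0 (SD, n = 4 each). The part of these shifts in the results was not tested, and in bulk samples fewer cells of a type and less RNA per cell cannot be told apart.

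In the libraries labelled prt6 and in Col-0 the family was made up almost wholly of the constitutive RAP2 genes. On a scale that corrects for transcript length (TPM, over the annotated exons), the summed level of the 5 ERFVII genes was 275 ± 14.1 TPM in prt6 and 271 ± 8.80 TPM in Col-0, but 91.1 ± 2.02 TPM in prt6 erfVII (SD, n = 4 each). RAP2.3 held 0.861 ± 0.292% of that sum in prt6 erfVII, 30.5 ± 2.48% in prt6 and 37.0 ± 3.30% in Col-0. HRE1 and HRE2 held 2.62 ± 0.382% and 1.84 ± 0.281% in prt6, and 1.83 ± 0.252% and 0.469 ± 0.285% in Col-0. The remainder of the sum in prt6 erfVII came from RAP2.2 (53.8 ± 1.74%) and RAP2.12 (45.3 ± 1.52%).

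**Figure D1:**
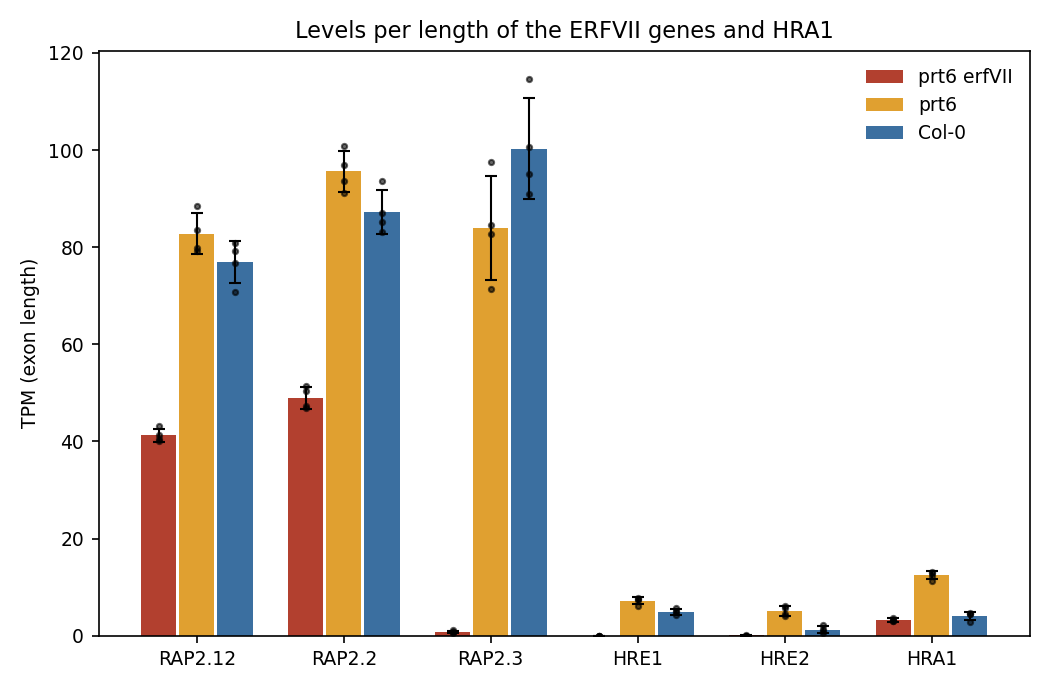
Levels of the 6 genes in TPM over exon length, with bars for the mean of 4 libraries, whiskers for the SD and points for single libraries, for prt6 erfVII, prt6 and Col-0. RAP2.12, RAP2.2 and RAP2.3 had mean levels between 76.9 and 100.3 TPM in prt6 and Col-0, whereas HRE1, HRE2 and HRA1 had at most 12.4 TPM.

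The order of the levels differed between genotypes. In prt6 erfVII, RAP2.2 (46.9 to 51.4 TPM) and RAP2.12 (41.3 TPM on average) stood above HRA1 (3.21 TPM), which stood above RAP2.3 (0.784 TPM), with each step larger than the spread between libraries. HRE2 (0.0351 TPM) and HRE1 (0 TPM) came last and overlapped. In prt6, RAP2.2 (95.6 TPM), RAP2.3 (84.0 TPM) and RAP2.12 (82.8 TPM) overlapped with their neighbours in the order. HRA1 followed at 12.4 TPM, above HRE1 (7.17 TPM) and HRE2 (5.07 TPM), which overlapped. In Col-0, RAP2.3 (100.3 TPM) and RAP2.2 (87.3 TPM) overlapped and RAP2.12 (76.9 TPM) was below both. HRE1 (4.95 TPM) and HRA1 (4.09 TPM) overlapped there, and HRE2 was lowest at 1.26 TPM. HRA1 thus ranked above HRE1 in every library labelled prt6 and below it in every Col-0 library. Dividing by coding length instead of exon length gave the same order in each genotype.

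RAP2.12, the activator through which HRA1 is known to act, was still transcribed in prt6 erfVII at a clearly lower level than in the other genotypes. The prt6 erfVII libraries had 48.1, 53.8, 52.0 and 51.3 CPM, the libraries labelled prt6 98.6, 93.3, 92.3 and 111 CPM, and the Col-0 libraries 100.2, 99.1, 95.8 and 88.7 CPM. All prt6 erfVII libraries were below all others, while prt6 and Col-0 overlapped. The log2 fold change was -0.93 (SE 0.07, adjusted p = 1.14e-08) in prt6 erfVII against prt6 and -0.90 (SE 0.06, adjusted p = 1.66e-11) against Col-0 (edgeR's quasi-likelihood test, p adjusted by Benjamini-Hochberg over all genes tested). Between prt6 and Col-0 it was 0.04 (SE 0.07, adjusted p = 0.885), and it was -0.02 without prt6 replicate 4.

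RAP2.2, the closest relative of RAP2.12 and likewise an activator of hypoxia genes, had nearly the same pattern. It was at 58.0, 56.2, 58.5 and 61.1 CPM in prt6 erfVII, against 114, 105, 109 and 109.7 CPM in prt6 and 112, 105, 102 and 99.96 CPM in Col-0. Again the prt6 erfVII libraries lay apart and the other genotypes overlapped. RAP2.2 fell by 0.89 on the log2 scale against prt6 (SE 0.06, adjusted p = 3.07e-09) and by 0.84 against Col-0 (SE 0.05, adjusted p = 2.38e-11) in the same edgeR fits, whereas prt6 and Col-0 differed by 0.07 (SE 0.06, adjusted p = 0.734). The ratio of RAP2.12 to RAP2.2 in TPM was 0.844 ± 0.0563 in prt6 erfVII, 0.867 ± 0.0702 in prt6 and 0.882 ± 0.0282 in Col-0 (SD, n = 4 each), which differ by less than the spread between libraries.

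RAP2.3, also known as EBP for binding to the ethylene-responsive GCC element, was the RAP2 gene with the largest loss. Its level was 0.371, 0.942, 0.699 and 0.668 CPM in prt6 erfVII (between 10 and 22 counts), compared with 68.3, 57.1, 66.0 and 83.6 CPM in prt6 and 77.1, 81.5, 97.9 and 86.2 CPM in Col-0. Every prt6 erfVII library was thus far below every other library. RAP2.3 was 102-fold lower in prt6 erfVII than in prt6 (log2 fold change -6.68, SE 0.17, adjusted p = 7.71e-13) and 129-fold lower than in Col-0 (-7.01, SE 0.13, adjusted p = 8.00e-19; edgeR). Between prt6 and Col-0 the log2 fold change was -0.32 (SE 0.10, adjusted p = 0.149) and the libraries overlapped. Without prt6 replicate 4 that difference was -0.42 and passed the threshold (adjusted p = 0.00156 by edgeR).

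**Figure D2:**
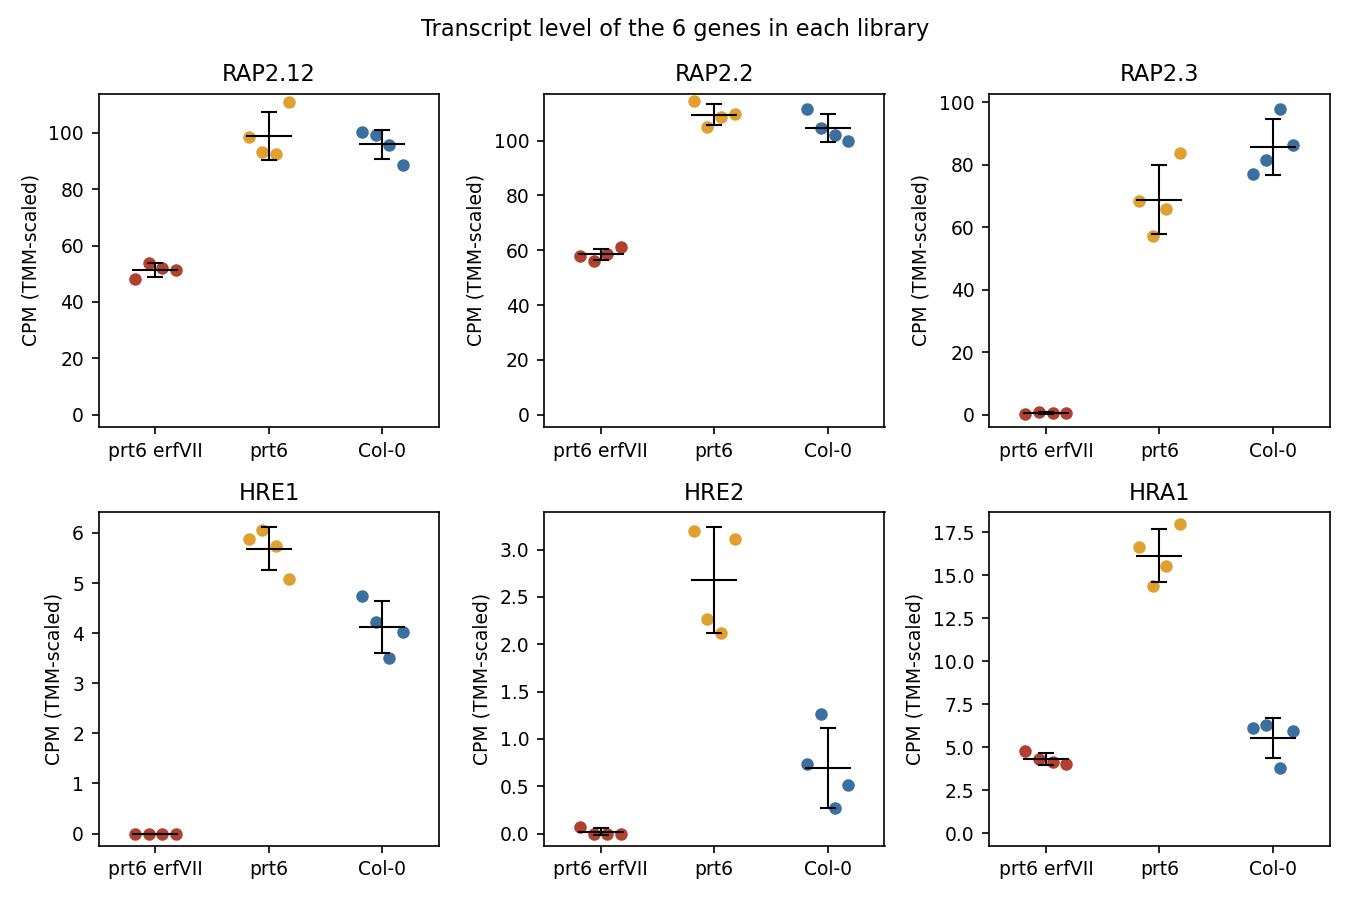
CPM of each gene in each of the 12 libraries, with points for libraries in the order of their replicate numbers, a horizontal line for the mean and whiskers for the SD, and one vertical scale per gene that starts near 0. In prt6 erfVII RAP2.12 and RAP2.2 kept 48.1 to 61.1 CPM, RAP2.3, HRE1 and HRE2 were below 1 CPM, and HRA1 lay near the Col-0 libraries.

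HRE1, an ERFVII induced under hypoxia, had 0 counts in each prt6 erfVII library. It had 5.88, 6.05, 5.73 and 5.08 CPM in prt6 (137 to 162 counts) and 4.74, 4.22, 3.50 and 4.03 CPM in Col-0 (90 to 109 counts). Set against 3 counts per library, which a count of 0 still allows, HRE1 was at least 47.8-fold lower in prt6 erfVII than in prt6 (adjusted p = 2.78e-10 by edgeR) and at least 35.0-fold lower than in Col-0 (adjusted p = 1.59e-11). All 4 libraries labelled prt6 were above all 4 Col-0 libraries. The log2 fold change between these genotypes, 0.47 (SE 0.14, adjusted p = 0.0952 by edgeR), missed the threshold, and without prt6 replicate 4 it was 0.52 (adjusted p = 0.0391). HRE1 shares 124 bases of exon (9.74% of its exons) with AT1G72370 (P40, a ribosomal protein) on the opposite strand, and the use of strand in counting is not stated. P40 was at 439 ± 23.8 CPM in prt6 erfVII, the genotype in which HRE1 had no counts, against 455 ± 36.7 CPM in prt6 and 436 ± 32.5 CPM in Col-0 (SD, n = 4 each).

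HRE2, the other hypoxia-inducible ERFVII, was the least abundant of the family in prt6 and Col-0 and the one that differed most between them. It had 2, 0, 0 and 0 counts in prt6 erfVII, while it had 88, 57, 60 and 84 counts in prt6 and 17, 32, 7 and 13 counts in Col-0. These correspond to 3.20, 2.27, 2.124 and 3.12 CPM in prt6 and 0.740, 1.26, 0.273 and 0.513 CPM in Col-0, so that the 3 genotypes did not overlap. HRE2 was 3.83-fold higher in prt6 than in Col-0 (log2 fold change 1.94, SE 0.32, adjusted p = 0.00150 by edgeR). The 2 counts in prt6 erfVII, set against 289 counts in prt6, gave a 138-fold lower level (95% interval of counting error 37.9 to 1147), and the fit called it lower (adjusted p = 2.13e-08 by edgeR). Against the 69 counts of Col-0 the level was 35.8-fold lower (95% interval of counting error 9.55 to 302). Both ratios rest on 2 counts in a single library. Put at 3 counts in each prt6 erfVII library, as in the plot of log2 fold changes, HRE2 was 22.5-fold lower than in prt6 and 5.92-fold lower than in Col-0. HRE2 had too few counts to pass the expression filter in that comparison, and an exact permutation test of CPM gave a two-sided p = 0.0286, the smallest that 4 against 4 libraries allow. The intervals cover counting error only.

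HRA1, which carries no mutation in these lines, was more abundant in prt6 than in either of the other genotypes. It had 4.79, 4.32, 4.15 and 4.04 CPM in prt6 erfVII, against 16.6, 14.4, 15.5 and 17.96 CPM in prt6 and 6.14, 6.27, 3.82 and 5.96 CPM in Col-0. The prt6 libraries stood apart, whereas Col-0 replicate 3 fell below all prt6 erfVII libraries. HRA1 was 3.69-fold lower in prt6 erfVII than in prt6 (log2 fold change -1.88, SE 0.11, adjusted p = 5.71e-10) and 2.91-fold higher in prt6 than in Col-0 (1.54, SE 0.13, adjusted p = 2.19e-07; edgeR). Between prt6 erfVII and Col-0 the log2 fold change of -0.36 (SE 0.16, adjusted p = 0.0783 by edgeR) did not pass the threshold. Without Col-0 replicate 3 it was -0.50 and passed (adjusted p = 0.00974).

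**Figure D3:**
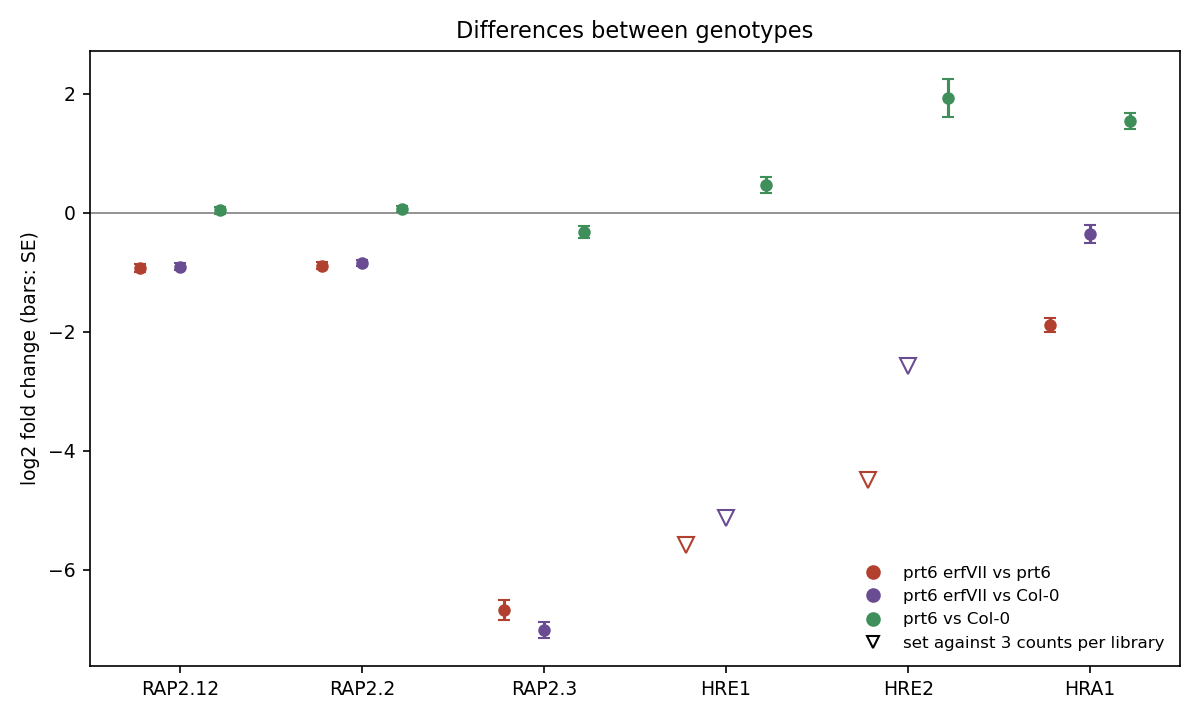
Log2 fold changes of the 6 genes in prt6 erfVII vs prt6, prt6 erfVII vs Col-0 and prt6 vs Col-0, with points for edgeR's estimates and whiskers for the SE, and open triangles for HRE1 and HRE2 in prt6 erfVII, set against 3 counts per library. HRE2 (1.94) and HRA1 (1.54) are the only points that passed the test in prt6 vs Col-0.

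These calls were read against all genes. In prt6 erfVII against prt6 all 6 genes were called lower and none overlapped, where 14.7% of the 20857 genes tested were called lower, 16.6% were called higher and 31.4% did not overlap between the genotypes. Against Col-0, 4 of the 5 genes tested were called lower and did not overlap, where 18.7% of 20747 genes were called lower, 18.5% higher and 34.8% did not overlap. In prt6 against Col-0, 2 of the 6 were called higher and 0 lower, where the shares over 20899 genes were 1.09% higher and 1.09% lower, and 7.75% did not overlap, as HRE1, HRE2 and HRA1 did not. Without prt6 replicate 4, 576 of 21031 genes were called higher and 655 lower in that comparison, and among the 6 genes HRE1 was then called higher and RAP2.3 lower as well. In prt6 erfVII 5 of these genes carry the mutations themselves, and HRA1 is the only unmutated gene among the calls. The comparisons share libraries, and their values are therefore given side by side.

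HRA1 and HRE2 belong to the 49 core hypoxia genes, a set known to be induced by low oxygen across cell types of Arabidopsis. Of the other 47, 45 were tested in prt6 erfVII against prt6. Of these, 27 were called lower (60%, against 14.7% of all genes) and 8 higher (17.8%, against 16.6%). Their median log2 fold change was -0.58, against 0.000879 over all genes tested. HRA1, counted apart, was at -1.88. The lowest were FTM1, a stearoyl-ACP desaturase (-5.81), PCO2 (-4.92) and AT2G17850, which had 1 to 2 counts in prt6 erfVII and 164 to 265 in prt6. The highest were PHI-1 (1.34), PP2-A13 (1.23) and UKL3 (1.08). Others that fell were ADH1, the alcohol dehydrogenase of fermentation (-3.25), and SUS4, a sucrose synthase (-3.65).

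In prt6 against Col-0, 27 of 45 core hypoxia genes were called higher (60%, against 1.09% of all genes) and 0 lower (against 1.09%), with a median of 0.74. PCO1 (5.09) and AT1G33055 (4.52) were the highest, beside AT2G17850, which had 0 to 3 counts in Col-0. The differences of HRE2 and HRA1 in this comparison lay above that median. In prt6 erfVII against Col-0 the set was divided, with 15 of 44 genes called higher (34.1%, against 18.5% of all genes). In the same comparison 10 were called lower (22.7%, against 18.7%), and the median was 0.16. AT1G19530 (4.40), AT4G39675 (3.08) and AT1G33055 (2.3) were the highest, while AT4G17670 (-1.57), FTM1 (-1.37) and SUS4 (-1.15) were the lowest. Some genes of the set are marked by the study as bound by HRE2. The marks come from earlier chromatin immunoprecipitation under hypoxic stress, not from these untreated seedlings. The marked genes were called lower in prt6 erfVII against prt6 in 21 of 35 cases (60%). So were 6 of 10 genes without that mark (60%), where 14.7% of all genes were called lower. The medians of marked and unmarked genes were -1.10 and -0.38. In prt6 against Col-0 the marked genes were called higher in 21 of 35 cases and the unmarked in 6 of 10, and the medians were 0.87 and 0.44. The difference between marked and unmarked genes was not tested.

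**Figure D4:**
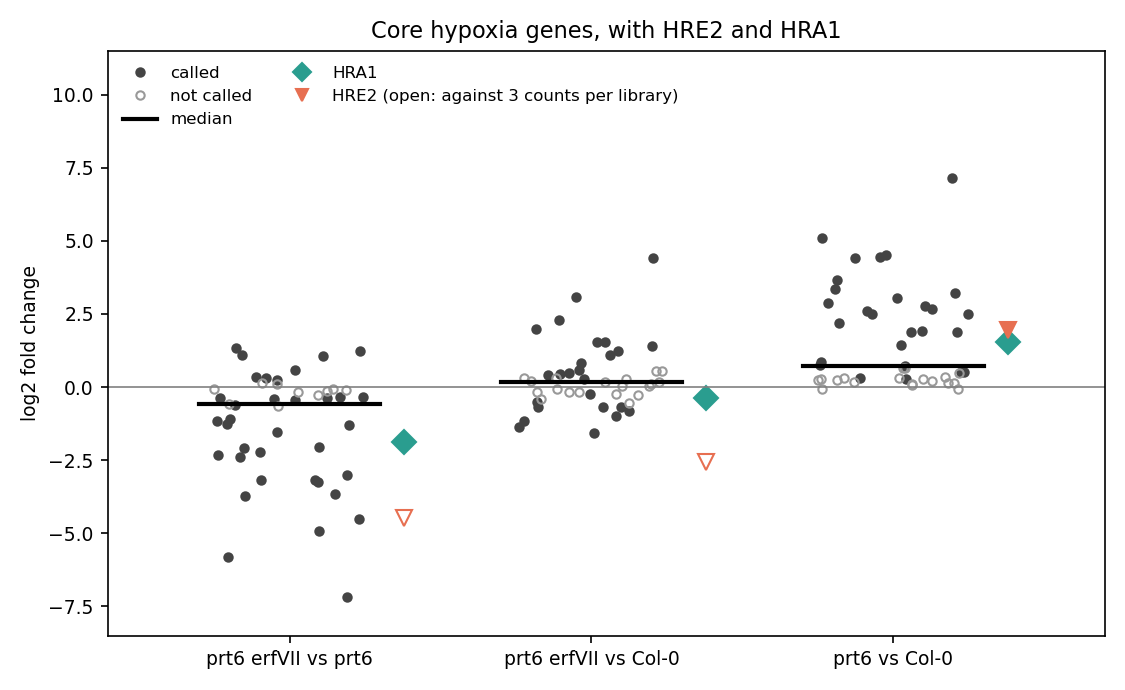
Log2 fold changes of the core hypoxia genes other than HRE2 and HRA1 in the 3 comparisons, with filled points for called genes, open points for genes not called and a line for the median, beside HRA1 (diamond) and HRE2 (triangle, open where set against 3 counts per library). The medians lie at -0.58, 0.16 and 0.74.

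Genes that act on the ERFVII proteins were counted likewise, PCO1 and PCO2 being core hypoxia genes as well. Of 21 regulators of ERFVII stability and activity, the calls in prt6 erfVII against prt6 were 3 higher and 3 lower (14.3% each), where all genes had 16.6% higher and 14.7% lower. Against Col-0 they were 5 higher (23.8%, against 18.5% of all genes) and 2 lower (9.52%, against 18.7%), and in prt6 against Col-0 2 higher (9.52%, against 1.09%) and 0 lower. PCO1 averaged 3.28 ± 0.926 CPM in prt6 erfVII, 75.3 ± 4.18 CPM in prt6 and 2.22 ± 0.865 CPM in Col-0 (SD, n = 4 each). PCO2 averaged 0.907 ± 0.169 CPM in prt6 erfVII, 28.3 ± 4.46 CPM in prt6 and 1.32 ± 0.424 CPM in Col-0. Both, like HRA1, were called higher in prt6 than in either of the other genotypes. PCO5 (0.31), ATE1 (0.28) and the methionine aminopeptidase gene MAP1C (0.23) were higher in prt6 erfVII than in prt6. Among the genes called higher against Col-0, PCO5 (0.45), MAP2B (0.29) and MAP1C (0.28) changed most, while PCO1, at 0.56, was not called (adjusted p = 0.0974 by edgeR). Beside PRT6, CPK12, a calcium-dependent kinase that phosphorylates ERFVIIs, was lower than in Col-0 (-0.26).

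Other genes with an AP2/ERF domain were found by a sequence pattern that takes in all 5 ERFVIIs and 103 further genes. Any members of the family that the pattern misses were not counted. Of 68 tested in prt6 erfVII against prt6, 18 (26.5%) had a higher level and 10 (14.7%) a lower level by the test, where the shares of all genes were 16.6% and 14.7%. Against Col-0, 25 of 69 were called higher (36.2%, against 18.5% of all genes) and 11 lower (15.9%, against 18.7%). In prt6 against Col-0 3 of 69 were higher (4.35%, against 1.09%) and 0 lower. RAP2.6L (2.41) and RAP2.6 (2.14), stress-related factors of another ERF group, and AT1G36060 (1.99) were the highest against prt6, and SHN2 (-1.40), ERF38 (-1.02) and AT2G44940 (-0.94) the lowest. In prt6 against Col-0 the 3 genes were AT3G60490 (0.95), DREB2C (0.89) and RAP2.4 (0.29).

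Neighbouring genes were examined because the ERFVII loci carry the mutations. Of 15 tested genes next to the 5 ERFVII genes (the nearest 2 on each side, and P40), 1 was called higher and 2 lower in prt6 erfVII against prt6 (20%), and 1 higher and 2 lower against Col-0 (20%), while 31.3% and 37.2% of all genes were called in these comparisons. AT3G14240, the nearest on 1 side of RAP2.2, was higher by 0.34 (SE 0.06) and AT3G14220, the second on the other side, was lower (-0.31, SE 0.07) against prt6. The third call in each comparison lay next to HRE2, at AT2G47540 (-0.60, SE 0.13) against prt6 and AT2G47500 (-0.31, SE 0.07) against Col-0. None of the 15 was called in prt6 against Col-0 by edgeR. Of 3 tested neighbours of HRA1, only OMR1, threonine deaminase, was called, at 0.19 (SE 0.06) in prt6 erfVII against Col-0. In these 2 comparisons each tested neighbour differed by less than the gene it adjoins.

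**Figure D5:**
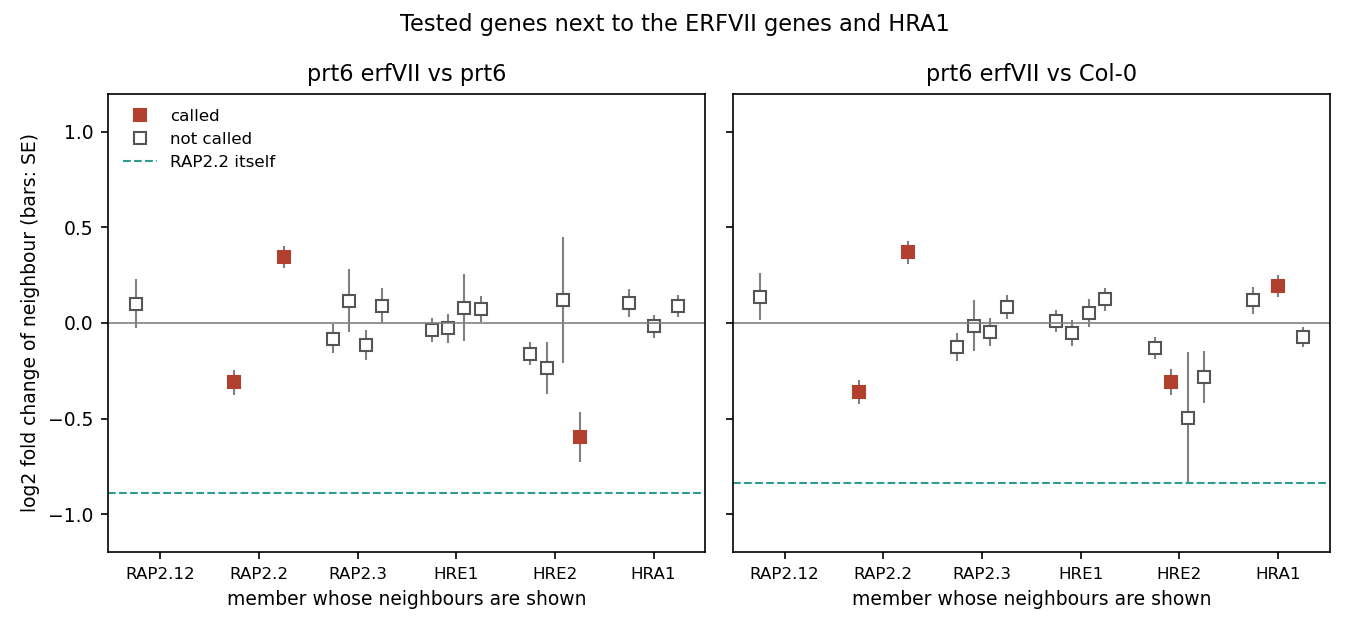
Log2 fold changes (whiskers, SE) of the tested genes next to each of the 6 genes in prt6 erfVII vs prt6 (left) and prt6 erfVII vs Col-0 (right), with filled squares for called genes and a dashed line at the value of RAP2.2 itself. The called neighbours lie between -0.60 and 0.37, above the line.

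The genes most alike in level over the 12 libraries (Pearson's r of log2 CPM, prior count 2, over 21144 genes) are given as a description, since 3 genotype means dominate each value. HRA1 was most like HB1, a non-symbiotic haemoglobin (0.98), PDC1, pyruvate decarboxylase (0.98), and FTM1 (0.97), all 3 of them core hypoxia genes. The ERFVII genes are all mutated in the same prt6 erfVII libraries, so a high value between them does not show co-regulation. RAP2.2 and HRE1 were among the closest to each other (0.99), and both were close to OPT7, an oligopeptide transporter (0.99 and 1.00). RAP2.12 was most like RAP2.3 (0.99), and RAP2.3 was most like AT4G26230 (1.00), ANNAT4, an annexin (0.99), and MRN1 (0.99). HRE2 was most like AT5G55450 (0.98), GSR1, a cytosolic glutamine synthetase (0.98), and UMAMIT14, an amino acid exporter (0.98). With genotype means removed, the closest gene to RAP2.2 was HB1 (0.93). Those closest to HRA1 were AT3G60440 (0.95), KIN10 (0.94), a catalytic subunit of the energy sensor SnRK1, and SSN2 (0.93). The closest to the other members were AT2G35470 (RAP2.12, 0.94), AT1G74458 (RAP2.3, 0.93), AT5G08670 (HRE1, 0.91) and WNK3 (HRE2, 0.91). The most negative values were as large (-0.91 for RAP2.2 to -0.96 for RAP2.12). Each is the extreme of 21144 genes over 12 libraries and was not tested against chance.

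Known ERFVII-linked sequence elements were searched in the 6 genes on both strands, over the gene and 1000 bases upstream of it. Only exact matches to the consensus sequence of each element were counted, so inexact copies would have been missed. The hypoxia-responsive promoter element (HRPE), which RAP2.2 and RAP2.12 are known to use, was found in 1 place, in a coding exon of RAP2.12 on the minus strand at chr1:20136101-20136112, shown with the match in capitals.
RAP2.12, HRPE: ttaggtttaGCCACTGGTTTCtgaagatta

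A match to HRPE within the gene was found in 0.222% of the 37882 genes searched, and within 1000 bases upstream in 0.0660%. The core of the GCC element (GCCGCC) was found upstream of HRE2 only, at chr2:19504235-19504240 on the plus strand, beginning 538 bases before the gene's start.
HRE2, GCC core: tccacaggcGCCGCCactaacctc

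Of all genes, 8.53% had that core within 1000 bases upstream and 24.2% within the gene. Within their exons RAP2.12 and HRE1 had 1 match each and RAP2.3 and HRA1 had 2 each. HRA1 had no exact match to either element in the 1000 bases upstream, and inexact copies were not searched for.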

How the data were processed

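Poly(A) RNA of whole seedlings was sequenced in 12 libraries, 4 per genotype, and groups were taken from the genotype label. After trimming with skewer, the authors aligned reads to TAIR10 (HISAT2 2.1.0), retained unique, correct alignments and obtained gene counts (featureCounts 1.6.0). They deposited raw counts per gene with no normalization, and every count column had a sample (0 without one). Reads of near-identical copies are lost by this filter, and the strand setting is not given in the sources used here.

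From the counts, each comparison was fitted on its 8 libraries with edgeR 4.0.16 in R 4.3.3 (TMM factors, filterByExpr, robust quasi-likelihood test, Benjamini-Hochberg adjustment over all genes tested, threshold 0.05) without covariates. The fits were tested on simulated counts. CPM used TMM-scaled library sizes over 12 libraries, and TPM the exon length of the TAIR10.1 annotation, in which 37882 of 37885 identifiers had a match. The files hold no coordinates, and those printed are of TAIR10.1. Genes at 3 counts or fewer in all libraries of a genotype were set against 3 counts per library, and HRE2 is given also as the ratio of its summed counts. Replicates are biological per the labels. Alternatives were DESeq2 1.42.0, RLE size factors, no expression filter, one fit over 12 libraries, a replicate block, coding length, and each library left out. Replicate numbers were not treated as pairs, since same-numbered libraries correlated between -0.082 and 0.163.

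Genes named are the 6 genes, PRT6, P40, nearest neighbours, up to 3 genes per list and direction with the largest change, and the most similar genes. ADH1, SUS4 and the root hair marker PRP3 were added after their values were seen. The 6 genes and all lists were chosen with earlier results of these data known, and the pattern for ERF-domain genes was widened until it took in the 5 ERFVIIs. The study's other assays were not used here. Python 3.11.15 was used for sequences and figures.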

Additional observations from a re-analysis of the deposited data

Results flagged for a closer look

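Of 17 groups of 4 libraries examined among the 6 genes, 2 held a library that stood apart from the other 3 by Dixon's criterion, where chance gives about 1 in 20. HRA1 was at 3.82 CPM in Col-0 replicate 3, below the other Col-0 libraries at 5.96 to 6.27 CPM. Without that library HRA1 was lower in prt6 erfVII than in Col-0 (adjusted p = 0.00974 by edgeR). HRE2 was at 0.0742 CPM (2 counts) in prt6 erfVII replicate 1. The other libraries of that genotype had no count, so that any count would have met the criterion.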

How the results depend on the processing

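Over the 17 member results that were tested, 215 of 221 alternative values kept their direction and their side of the threshold. All calls of the 6 genes in prt6 erfVII against prt6 were kept under every alternative run. HRE2 in prt6 erfVII against Col-0, not tested by the main fit, was called with DESeq2, without the expression filter and with one fit over 12 libraries (log2 fold change of -2.56 each, set against 3 counts per library), which keep the gene, and ranged between -2.83 and -2.11 with a library left out. It was tested and called without Col-0 replicate 3 and without each prt6 erfVII replicate, and not tested in the other fits. RAP2.3 in prt6 against Col-0 was called lower with DESeq2 (-0.32, adjusted p = 0.0489) and with the replicate block (-0.33, adjusted p = 0.0296). With each library left out, it ranged between -0.42 and -0.24, HRE1 in prt6 against Col-0 between 0.39 and 0.54, HRA1 in prt6 erfVII against Col-0 between -0.50 and -0.29, and RAP2.12 in prt6 against Col-0 between -0.017 and 0.067. Leaving out prt6 replicate 4 brought the calls of RAP2.3 and HRE1 and the change of sign of RAP2.12, and leaving out Col-0 replicate 3 the call of HRA1. The number of genes called in prt6 against Col-0 was 455, and ranged between 281 (without Col-0 replicate 2) and 1231 (without prt6 replicate 4). The replicate block changed no other call of the 6 genes. The causes were not tested. HRE2, with 7 to 32 counts in Col-0, is limited by depth.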
